A study of Mus musculus with 50 samples.

Results

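Potassium channel genes outside the Kcnj family were taken as every gene symbol in the count tables that begins with Kcn and not with Kcnj. This gave 83 of 24552 gene symbols, and the 15 Kcnj symbols, which encode inward rectifiers, were left out. The set therefore holds pore-forming subunits, their auxiliary subunits, and a few noncoding or regulatory genes that carry the same prefix. The genes were followed in ribosome-bound RNA of D1- and D2-medium spiny neurons (MSNs) of the mouse nucleus accumbens (NAc), in total RNA of the same tissue, after social defeat, and in a D1 line with floxed *Sirt1*.

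The mice were RiboTag (RT) animals, in which Cre recombinase switches the ribosomal protein Rpl22 to an HA-tagged form, so that an HA immunoprecipitation (IP) recovers ribosome-bound transcripts of the Cre-expressing cells. RT; D1-Cre mice carried the BAC transgene FK150 and RT; D2-Cre mice the BAC transgene ER44, and a BAC driver is active in any cell type that reads the receptor's promoter, not only in MSNs. All were male C57BL/6 mice of 8–12 weeks. They were either undefeated controls (Con) or had gone through up to 10 days of chronic social defeat stress (CSDS) and were then sorted by a social interaction test into resilient (Res) and susceptible (Sus) mice. Each library pooled the NAc punches of 2 mice. IP libraries numbered 4 Con, 4 Res and 5 Sus from D1-Cre mice and 5 Con, 5 Res and 5 Sus from D2-Cre mice, and input libraries, made from total RNA, numbered 3 for each line and stress group. A separate table held the 4 D1 Con IPs beside 4 IPs from undefeated RT; D1-Cre mice that also carried a floxed *Sirt1*, whose age the labels do not give.

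Gene counts summed to between 21591075 and 31009626 per IP library, between 18384265 and 28179940 per input library, and between 22174187 and 31785984 per library of the *Sirt1* table. No pair of replicates agreed within sampling noise, so each library counted once. As a check of the labels, summed *Drd1*, *Pdyn*, *Tac1* and *Chrm4* averaged 1291 CPM (counts-per-million, scaled by TMM factors) in the D1 IPs and 491 CPM in the D2 IPs, and summed *Drd2*, *Adora2a*, *Penk* and *Gpr6* averaged 2543 and 6841 CPM. *Drd1* averaged 332 and 134 CPM and *Drd2* 97.8 and 343 CPM, so each receptor's transcript was present in both kinds of IP. Beside these, the summed cortical excitatory markers (5 genes, among them *Slc17a7*, *Neurod6*, *Tbr1* and *Slc17a6*) ran from 387 to 1364 CPM in the 13 D1 IPs and from 45.4 to 296 CPM in the 15 D2 IPs, so the lines did not overlap. The inputs of both lines held similar sums, 473 ± 274 CPM for D1-Cre and 578 ± 258 CPM for D2-Cre mice (SD, n = 9 each). In these bulk samples, fewer cells of a type and less RNA per cell cannot be told apart.

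Potassium channels set the resting potential of neurons, end action potentials, and limit repeated firing. Voltage-gated (Kv) channels are tetramers of alpha subunits from the Kcna, Kcnb, Kcnc, Kcnd, Kcnh and Kcnq genes. The Kcnf, Kcng, Kcns and Kcnv products do not form channels alone but join Kcnb subunits. Kcnab and Kcnip genes encode cytoplasmic auxiliary subunits of Kcna and Kcnd channels. Tandem-pore (Kcnk) channels carry leak current, Kcnma1 and Kcnn channels open with calcium, and Kcnt channels open with sodium. MSNs are known for a very negative resting potential and for slowly inactivating Kcna currents that delay the first spike. They are also known for a Kcnq (M-type) current that is closed by muscarinic receptors.

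Ranges of the D1 and the D2 IPs did not overlap for 7 of these genes, and the 4 of them with a single start in the RefSeq promoter table are shown here by the 250 bases upstream of that start, to let the sequence be read beside the levels. Sequences are from RefSeq on GRCm38.p6, are written 5′ to 3′ on the gene's strand, and carry in capitals the letters TGACG (the core of the cAMP response element) and GGGCGG (the GC box) on either strand. *Kcnc4* and *Kcnk13* are members with higher counts in D1 IPs. *Kcna6* and *Kcna5*, genes of one cluster on chromosome 6, differed between the lines in opposite directions.
Kcnc4 (chr3:107458899-107459148, minus strand): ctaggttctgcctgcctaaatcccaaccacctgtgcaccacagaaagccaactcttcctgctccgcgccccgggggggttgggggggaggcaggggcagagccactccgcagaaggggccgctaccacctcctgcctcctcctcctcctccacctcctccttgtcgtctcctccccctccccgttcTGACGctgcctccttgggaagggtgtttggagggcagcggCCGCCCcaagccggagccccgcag
Kcnk13 (chr12:99964249-99964498, plus strand): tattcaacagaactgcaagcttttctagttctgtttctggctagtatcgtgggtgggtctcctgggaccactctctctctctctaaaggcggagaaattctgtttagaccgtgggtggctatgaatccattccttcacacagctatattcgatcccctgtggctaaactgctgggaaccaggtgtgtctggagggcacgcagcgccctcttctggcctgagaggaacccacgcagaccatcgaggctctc
Kcna6 (chr6:126740675-126740924, minus strand): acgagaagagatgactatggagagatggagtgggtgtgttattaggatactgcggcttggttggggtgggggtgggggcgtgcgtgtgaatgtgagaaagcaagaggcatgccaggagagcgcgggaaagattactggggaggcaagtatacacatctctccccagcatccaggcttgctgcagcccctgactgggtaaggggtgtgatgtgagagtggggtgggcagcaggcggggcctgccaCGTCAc
Kcna5 (chr6:126535556-126535805, minus strand): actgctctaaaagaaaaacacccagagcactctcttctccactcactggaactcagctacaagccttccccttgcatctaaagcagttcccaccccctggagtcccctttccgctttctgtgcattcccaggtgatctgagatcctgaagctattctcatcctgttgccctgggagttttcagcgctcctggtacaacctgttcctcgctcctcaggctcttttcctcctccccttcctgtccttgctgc
The starts differ between annotations. The *Kcnc4* window lies within the gene as GENCODE vM21 gives it, whose start on the minus strand is at 107459552, and the RefSeq start of *Kcna5* lies upstream of the GENCODE start at 126535412. The *Kcnc4* window held 1 TGACG and 1 GGGCGG, had a GC content of 68%, and was the richest in GC of the 4. The *Kcna6* window held 1 TGACG, read on the opposite strand, and no GGGCGG. Neither word occurred in the windows of *Kcnk13* or *Kcna5*, with GC contents of 52.8% and 53.2%. The full palindrome TGACGTCA, in which TGACG lies, was found in none of the 4 windows, and in 1.55% of all 32851 promoter windows of this length. TGACG alone occurred in 17.8% of all windows and in 15% of the 80 windows of 59 potassium channel genes that matched the RefSeq table. GGGCGG occurred in 32.7% of all and in 46.2% of the channel windows, and the E-box CANNTG in 66.2% and 68.8%. Median GC content was 59% over the channel windows and 52.4% over all windows. TATAAA stood in 12.4% of all windows and in none of the 80.

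Of the 83 genes, 65 passed the count filter in the IPs and 18 did not. The untested genes never exceeded 19 counts in any IP library. They were the epithelial and cardiac subunit genes *Kcne1*, *Kcne1l*, *Kcne2*, *Kcne3*, *Kcne4* and *Kcnq1*, with *Kcna7*, *Kcna10*, *Kcnk5*, *Kcnk7*, *Kcnk15*, *Kcnk16*, *Kcnk18*, *Kcnmb1*, *Kcnmb3*, *Kcnmb4os1*, *Kcnn4* and *Kcnv2*. *Kcnk16* was at 0 in every library, and *Kcnk18* was at 0 in every IP with at most 2 counts in an input. Genes at these counts were not compared between IPs, and low counts do not show that the transcripts are absent.

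Per kilobase of exon, the most abundant potassium channel transcripts in the IPs came from *Kcnab2*, the Kv beta-2 subunit, with 79.3 CPM per kb, and *Kcna1*, a Kv1 alpha subunit of axons, with 75.5 CPM per kb. *Kcnip2*, an auxiliary subunit of Kv4 channels, followed at 58.7 CPM per kb and *Kcnd2*, the Kv4 alpha subunit it binds, at 55.7 CPM per kb. *Kcnab1*, the Kv beta-1 subunit that confers inactivation, stood at 42.0 CPM per kb. *Kcnf1*, *Kcnk2*, *Kcna2*, *Kcnq5* and *Kcnip3* lay between 37.5 and 31.6 CPM per kb. Among all genes tested in the IPs, *Kcnab2* was at percentile 96.7 for this quantity. The genes named here all had a higher mean in IPs than in inputs, *Kcnd2* for example against 28.4 CPM per kb in the inputs. Among them, *Kcnab2* and *Kcnf1* were the more abundant in D1 IPs (87.9 and 42.2 CPM per kb against 71.7 and 33.4), and *Kcnip2* and *Kcnk2* in D2 IPs (63.9 and 40.8 against 52.8 and 28.4). By less, *Kcna2* and *Kcnip3* were also higher in D1 IPs (35.4 and 34.0 against 32.1 and 29.5), and *Kcnab1* in D2 IPs (44.7 against 39.0).

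**Figure D1:**
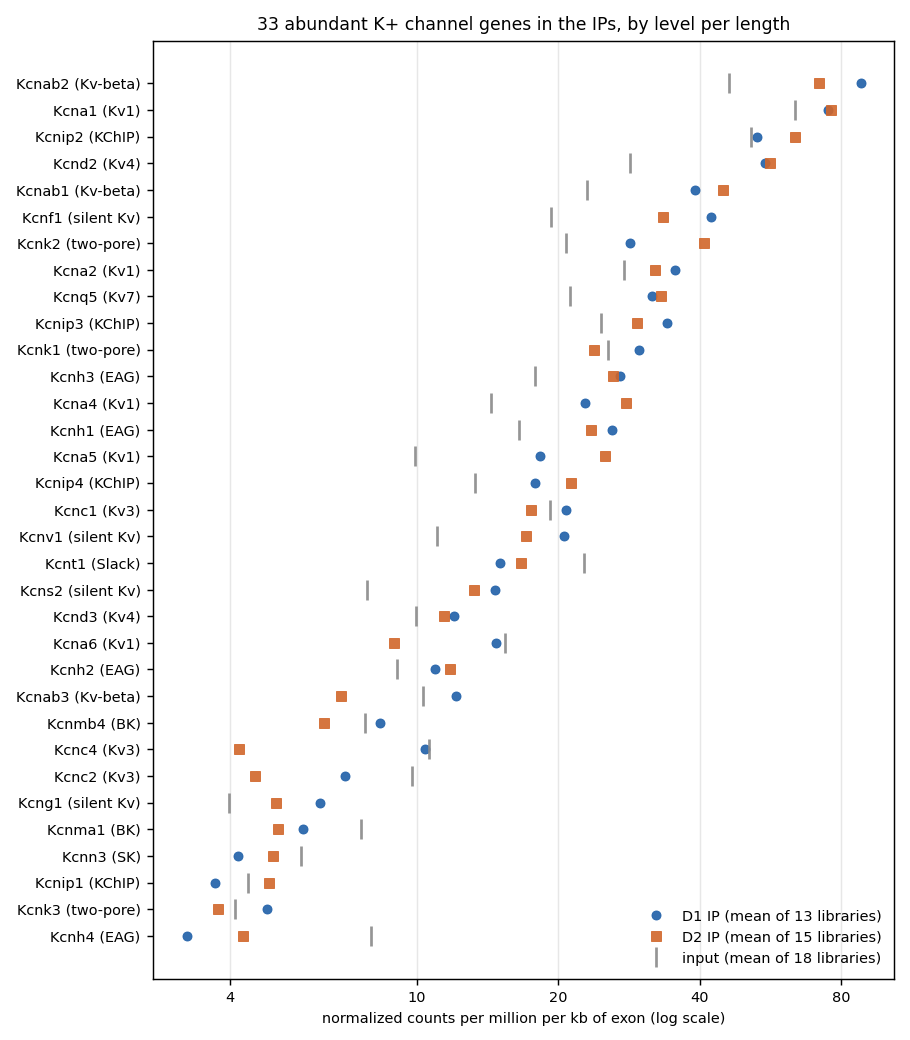
Mean level of 33 abundant potassium channel genes, in CPM per kilobase of exon, in the D1 IPs (n = 13), the D2 IPs (n = 15) and the inputs (n = 18). *Kcnab2* and *Kcna1* lead, at 79.3 and 75.5 CPM per kb over the IPs.

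The first comparison asked which of these channels differ between the D1 and the D2 neurons, as the mean difference over Con, Res and Sus. Of the 65 genes tested, 39 differed, 27 of them higher and 12 lower in the D1 IPs (edgeR quasi-likelihood test, adjusted p under 0.05). The same rule called 40.8% of all 14224 genes tested, 19.6% higher and 21.3% lower, so the share of channel genes called (39 of 65) is to be read against a large background. The median log2 difference, D1 minus D2, was 0.13 over the 65 channel genes and −0.016 over all genes. Requiring also a fold above 1.5 left 9 channel genes, against 7.66% of all genes. Higher in D1, as were 4.94% of all genes, were *Kcnc4*, *Kcnk12*, *Kcnk4*, *Kcnmb2*, *Kcnab3*, *Kcnk13*, *Kcna6* and *Kcnc2*, and lower, as were 2.71%, was *Kcnq1ot1*. All p-values here measure the spread between libraries that each pool 2 mice.

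Each stress group on its own gave a similar picture. In Con libraries 21 of 65 channel genes differed (14% of all genes), in Res libraries 21 (17.5%), and in Sus libraries 25 (17.6%). With a fold above 1.5 as well, these became 8 (4.98%), 7 (5.52%) and 7 (5.55%). In all 3 groups, 16 were called, against 9.08% of all genes. Of these, 10 were higher in D1 (*Kcnc4*, *Kcnk12*, *Kcnab3*, *Kcnk13*, *Kcna6*, *Kcnc2*, *Kcnf1*, *Kcnk1*, *Kcnab2* and *Kcnc1*) and 6 were lower (*Kcnip2*, *Kcna4*, *Kcnip1*, *Kcnh4*, *Kcna5* and *Kcnk2*). Some of these calls within a group were lost when 1 library was left out. In Con libraries *Kcnf1* lost its call in 7 of 9 such fits, *Kcnc1* in 6, and *Kcnip2* and *Kcnk1* in 5 each. In Res libraries *Kcnf1* lost it in 5 of 9 and *Kcnh4* in 4, and in Sus libraries *Kcnh4* in 3 of 10. All 39 genes called over the mean had the same sign in the 3 stress groups.

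**Figure D2:**
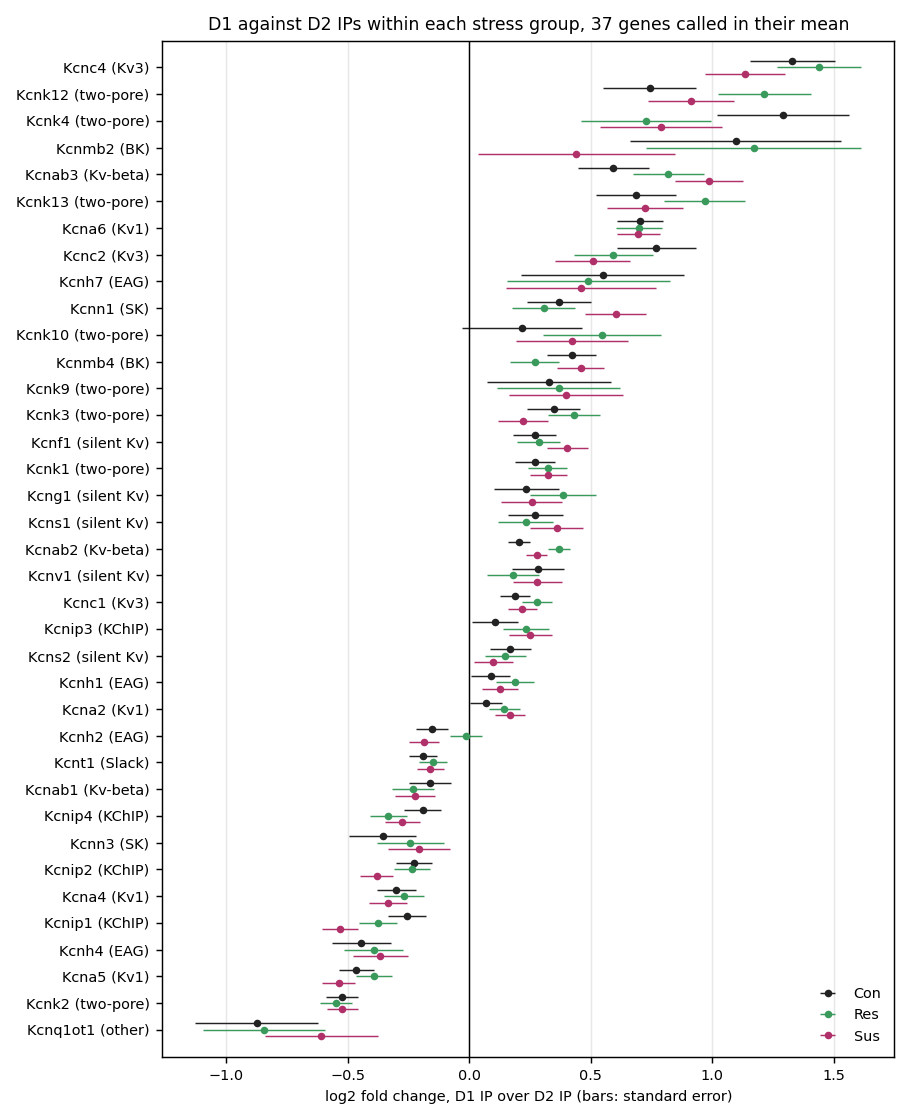
Log2 difference, D1 minus D2 IP, with its standard error for 37 potassium channel genes called over the mean of the stress groups, drawn separately for Con, Res and Sus libraries. Points right of 0 are higher in D1; *Kcnc4* is farthest right at 1.30 over the mean and *Kcnq1ot1* farthest left at −0.78.

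Markers of other cells moved with the same contrast, and their part in these differences was not tested. All 4 parvalbumin interneuron markers were higher in D1 IPs, with sums of 64.6 to 86.2 CPM against 32.5 to 55.3 CPM, and 4 of 5 cortical excitatory markers were higher with sums as given above. All 6 astrocyte markers were also higher (sums 47.6–95.8 against 37.9–64.2 CPM), while both lines stood far under the inputs, which averaged 868 and 862 CPM. Lower in D1 were 5 of 7 cholinergic interneuron markers (28.9–57.4 against 69.3–149 CPM) and 4 of 6 microglial markers (9.78–16.6 against 12.4–20.3 CPM). Of the remaining lists of other cells, 4 of 6 oligodendrocyte and 2 of 3 precursor markers were higher in D1. Lower were 3 of 6 endothelial and 1 of 4 somatostatin and NPY interneuron markers. Sums of the 4 general MSN markers averaged 3907 CPM in D1 (3210–4907) and 4986 CPM in D2 IPs (4155–5705). Their part in the channel values was not tested either. No gene of these lists stood at 3 counts or fewer in every D1 IP or in every D2 IP library. With the summed cortical markers as a covariate, a fit chosen after the data were seen and in which the covariate itself separates the lines, 19 channel genes were called, 12 higher and 7 lower in D1, against 14.5% of all genes in the same fit. Among reported genes called in either fit, values from that fit are given below where the call changed or the value moved by more than 1.5 times. Values of genes called in neither fit also moved, some of them in sign. *Kcnma1* went from 0.15 to −0.06 and *Kcnt2* from 0.17 to −0.18.

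Kv3 subunits, which open at high voltage and close fast, were higher in D1 IPs, as the following genes show. *Kcnc4* (chromosome 3, 107438303–107459552 on mm10) ran from 20.1 to 50.3 CPM in the D1 IPs (median 37.4) and from 11.9 to 20.1 CPM in the D2 IPs (median 15.3). The lowest D1 library, Con 1, lay just above the highest D2 library, Sus 1. Con 1 also had the lowest cortical marker sum of the D1 IPs, and a link between these values was not tested. The log2 difference was 1.30 (SE 0.099, adjusted p = 1.88e-11, edgeR), the largest of the 65. It was 1.33 in Con, 1.44 in Res and 1.14 in Sus libraries, and 1.06 with the cortical covariate.

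*Kcnc2* ran from 37.8 to 59.6 CPM (median 49.1) in D1 and from 20.9 to 49.4 CPM (median 31.5) in D2 IPs, with a log2 difference of 0.62 (SE 0.092, adjusted p = 3.16e-06). The ranges overlapped. The inputs ran from 58.4 to 88.2 CPM, above all D2 IPs and above most D1 IPs. With the cortical covariate the difference was 1.00, and called. *Kcnc1*, at 171–214 (median 194) against 150–184 CPM (median 164), differed by 0.23 (SE 0.036, adjusted p = 7e-06), and by 0.36, called, with the cortical covariate. Kv3 channels are known in fast-spiking interneurons, whose markers were higher in D1 IPs, as given above. The part of these cells in the Kv3 values was not tested.

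Kv1 subunits moved both ways. *Kcna6* and *Kcna5* lie on either side of *Kcna1* on chromosome 6, at 126708329–126740674, 126532551–126535412 and 126640397–126646384 on mm10. *Kcna6* ran from 67.1 to 103 CPM (median 87.9) in D1 and from 45.8 to 65.1 CPM (median 53.7) in D2 IPs, a log2 difference of 0.70 (SE 0.053, adjusted p = 1.88e-11). Its D2 level was also below every input library, which ran from 73 to 109 CPM, whereas its D1 level overlapped them.

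*Kcna5* showed the opposite order, with 46.2–61.5 CPM (median 52.1) in D1 and 63.8–81.6 CPM (median 71.3) in D2 IPs and a log2 difference of −0.47 (SE 0.041, adjusted p = 4.01e-10). Both lines stood above the inputs, at 21.5–35.7 CPM. *Kcna4*, an A-type subunit, was also lower in D1, with 95.4–131 CPM (median 104) against 122–148 CPM (median 136) and a log2 difference of −0.30 (SE 0.046, adjusted p = 5.34e-06). *Kcna2*, a partner of *Kcna1* in axons, was slightly higher in D1 (0.13, SE 0.037, adjusted p = 0.00642; 0.09, adjusted p = 0.484, with the cortical covariate).

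*Kcna1* itself, between its differing neighbours, had 320–404 CPM in D1 and 309–413 CPM in D2 IPs. Its difference of −0.03 (SE 0.038, adjusted p = 0.509) was within the spread of the libraries. *Kcna3* lay at 4.35–9.84 and 3.97–9.86 CPM and was not called either.

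Against 40.8% of all genes, Kv beta subunits, which bind the Kv1 alpha subunits and guide them to axons, differed in all 3 genes. *Kcnab2*, the most abundant of them, had 466–529 CPM (median 481) in the D1 and 366–424 CPM (median 411) in the D2 IPs. No library of one line reached the other, although the log2 difference was only 0.28 (SE 0.026, adjusted p = 8.09e-10). With the cortical covariate it was 0.19. *Kcnab3* was higher in D1 by 0.80 (SE 0.083, adjusted p = 7.74e-09), with 22.3–42.3 against 14.8–26 CPM, and *Kcnab1* was lower (−0.21, SE 0.049, adjusted p = 0.00127), with 295–406 against 297–437 CPM. The *Kcnab1* call was lost with the cortical covariate (−0.19, adjusted p = 0.187).

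Kv4 alpha subunits were not called, while genes of their auxiliary subunits were. *Kcnd2* (256–318 against 225–328 CPM, log2 difference −0.05, SE 0.045), *Kcnd3* (106–126 against 96.6–126 CPM, 0.06, SE 0.037) and *Kcnd1* (13.8–19.4 against 13.7–17.1 CPM, 0.01, SE 0.050) had adjusted p-values of 0.43, 0.186 and 0.881. With the cortical covariate *Kcnd3* was called higher in D1 (0.21, adjusted p = 0.0327). All 4 genes of the Kv channel-interacting proteins (KChIPs), calcium-binding subunits that bring Kv4 channels to the membrane, passed the test. Over all genes the share that passed was 40.8%.

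*Kcnip1* (chromosome 11, 33629339–33993152) had 20.7–25.3 CPM (median 22.9) in D1 and 26.4–37.1 CPM (median 29.9) in D2 IPs, with no overlap and a log2 difference of −0.39 (SE 0.044, adjusted p = 4.1e-08). *Kcnip2*, at 155–232 (median 182) against 195–253 CPM (median 221), was lower in D1 (−0.28, SE 0.041, adjusted p = 2.66e-06). *Kcnip4*, at 59.2–71.6 against 61–92.3 CPM, was lower by a similar amount (−0.27, SE 0.044, adjusted p = 1.36e-05). Only *Kcnip3*, of the 4, was higher in D1 (0.20, SE 0.053, adjusted p = 0.00401, 108–141 against 80.4–126 CPM), and its value turned to −0.17, not called, with the cortical covariate.

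Among tandem-pore leak channels 9 of 14 genes could be tested. Against 19.6% higher and 21.3% lower over all genes, 7 of these 9 were higher and 1 was lower in D1 IPs. The exception was *Kcnk2* (TREK-1, chromosome 1, 189207930–189402273), which opens with stretch and heat and is closed downstream of Gs- and Gq-coupled receptors. It had 116–161 CPM (median 141) in D1 and 170–221 CPM (median 201) in D2 IPs, with inputs at 91.4–118 CPM. The lines did not overlap, and the log2 difference of −0.53 (SE 0.038, adjusted p = 4.04e-12) had the smallest p of the 65 genes. It was −0.52 in Con, −0.55 in Res and −0.52 in Sus libraries, and −0.56 with the cortical covariate.

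*Kcnk13* (THIK-1, chromosome 12, 99964499–100062682), a channel known in microglia, had 4.32–6.94 CPM (median 5.08) in D1 and 2.24–4.13 CPM (median 2.83) in D2 IPs, a log2 difference of 0.79 (SE 0.094, adjusted p = 7.94e-08). The microglial marker sums were lower in D1 than in D2 IPs, and their part in this difference was not tested. The inputs of *Kcnk13* lay above most IPs, at 5.59–10.4 CPM. Its relative *Kcnk12* (THIK-2) differed by 0.96 (SE 0.11, adjusted p = 3.37e-08) at 2.35–5.35 against 1.33–3.07 CPM. *Kcnk4* (TRAAK), at 1.08–3.08 against 0.508–1.21 CPM, differed by 0.94 (SE 0.15, adjusted p = 1.33e-05), and by 0.54, not called (adjusted p = 0.248), with the cortical covariate.

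*Kcnk1* (TWIK-1) was higher in D1 by 0.31 (SE 0.046, adjusted p = 3.81e-06; 60.8–75.8 against 46.5–67.7 CPM) and *Kcnk3* (TASK-1) by 0.33 (SE 0.061, adjusted p = 6.61e-05, 16.2–22.1 against 12.1–18.7 CPM). *Kcnk10* (TREK-2), at 1.5–5.17 against 1.72–4.2 CPM, and *Kcnk9* (TASK-3), at 3.44–8.87 against 2.56–8.22 CPM, passed the test with adjusted p-values of 0.0235 and 0.0414. Neither call held in every fit that left out 1 library. *Kcnk10* lost its call without D1 Con 3 (log2 difference 0.33, adjusted p = 0.0642), and *Kcnk9* lost it in 16 of 28 fits that each left out 1 library. With the cortical covariate *Kcnk1* (0.25, adjusted p = 0.0625), *Kcnk10* (0.50, adjusted p = 0.261) and *Kcnk9* (0.73, adjusted p = 0.0654) were not called.

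**Figure D3:**
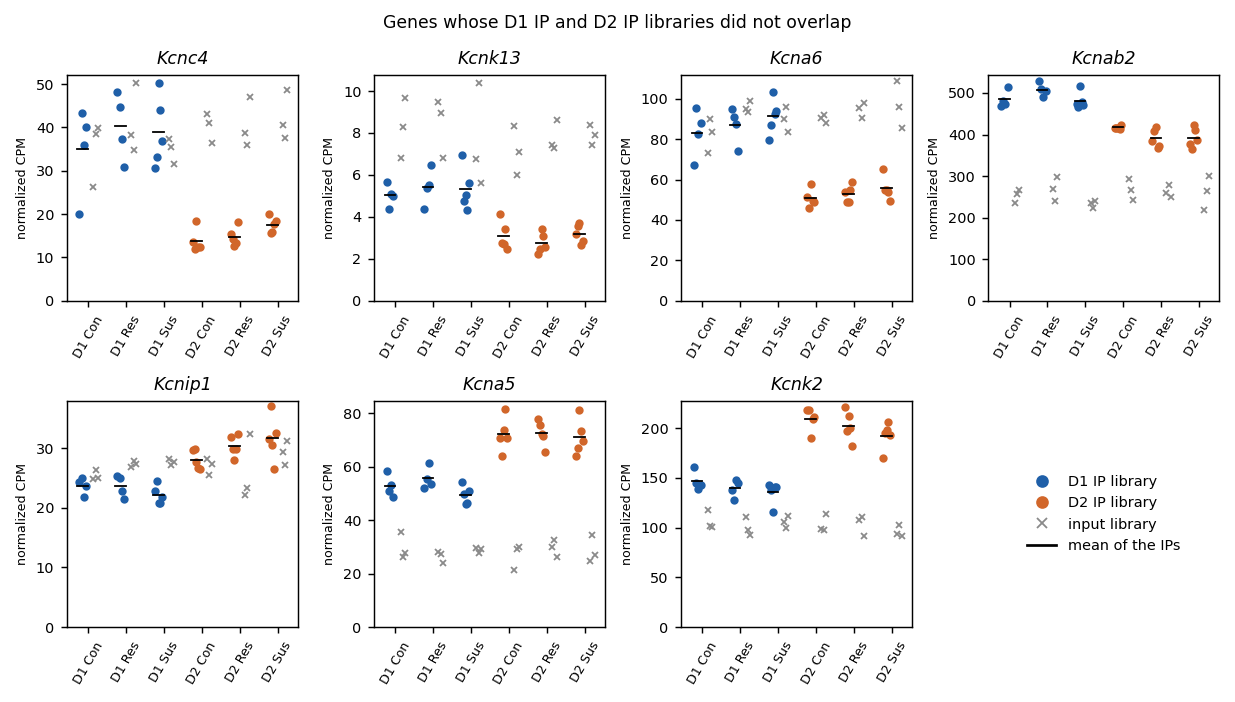
CPM in every IP library of the 7 potassium channel genes whose D1 and D2 IPs did not overlap, with the input libraries as crosses. *Kcnc4*, *Kcnk13*, *Kcna6* and *Kcnab2* are higher in the 13 D1 IPs, and *Kcnip1*, *Kcna5* and *Kcnk2* in the 15 D2 IPs, while the inputs of the lines overlap.

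Such separation of all 28 IPs was seen for 7 of the 65 genes, against 2.82% of all genes tested, with 4 higher (2.02%) and 3 lower (0.801%) in D1. In the 18 inputs the lines did not differ for any of 70 channel genes tested (edgeR, adjusted p under 0.05; 0.0266% of all genes were called). At an unadjusted p under 0.05 there were 2, against 4.82% of all genes, *Kcnk6* (0.26, unadjusted p = 0.0198) and *Kcnip2* (0.15, unadjusted p = 0.0464), and DESeq2 called none after adjustment.

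Kv2 subunits are the delayed rectifiers of the soma. *Kcnb2*, at 7.13–14.5 against 5.94–10.6 CPM, was not called (log2 difference 0.20, SE 0.086, adjusted p = 0.067). Against 19.6% higher and 21.3% lower over all genes, none of 9 tested silent partners of Kv2 was called lower in D1 and 5 were called higher. These were *Kcnf1* (0.32, SE 0.050, adjusted p = 7.55e-06, 172–255 against 133–179 CPM), *Kcng1* (0.29), *Kcns1* (0.29), *Kcnv1* (0.25) and *Kcns2* (0.14). All 5 calls were lost with the cortical covariate, at 0.09 for *Kcnf1* (adjusted p = 0.531), −0.024 for *Kcng1* (adjusted p = 0.934), 0.16 for *Kcns1* (adjusted p = 0.435), 0.07 for *Kcnv1* (adjusted p = 0.744) and 0.16 for *Kcns2* (adjusted p = 0.258). *Kcns3*, with a log2 difference of 0.42 (SE 0.21), was not called, nor were *Kcng2*, *Kcng3* and *Kcng4*.

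The ether-a-go-go family (EAG) split evenly. *Kcnh7* (0.50, SE 0.19, adjusted p = 0.0352, 3.53–9.93 against 1.24–10.2 CPM) and *Kcnh1* (0.13, SE 0.045, adjusted p = 0.0173) were higher in D1. The *Kcnh7* call was lost in 13 of 28 fits that left out 1 library, with values of 0.45 to 0.49. *Kcnh4*, a member known for its striatal expression, was lower in D1 (−0.40, SE 0.068, adjusted p = 2.48e-05, 9.92–14.5 against 12.6–20.8 CPM), as was *Kcnh2* (−0.12, SE 0.037, adjusted p = 0.0125). The cortical covariate ended the calls of *Kcnh7* (0.16, adjusted p = 0.826), *Kcnh1* (−0.013, adjusted p = 0.945) and *Kcnh2* (−0.08, adjusted p = 0.552). *Kcnh3*, *Kcnh5*, *Kcnh6* and *Kcnh8* were not called, the last with 0.11 (SE 0.31) and with 1.78, called, under the cortical covariate.

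*Kcnq5* and *Kcnq3*, subunits of M-channels, were not called, at log2 differences of −0.08 (SE 0.042, adjusted p = 0.14) and −0.15 (SE 0.15, adjusted p = 0.448). *Kcnq5* ran from 205 to 271 CPM (median 244) in the D1 IPs and from 204 to 281 CPM (median 263) in the D2 IPs, so the lines overlapped almost fully.

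The calcium-activated BK alpha subunit *Kcnma1* was not called (0.15, SE 0.085, 77.2–140 against 58.1–118 CPM), whereas the beta subunits *Kcnmb4* (0.38, SE 0.058, adjusted p = 4.05e-06, 24.7–33.8 against 16.2–25 CPM) and *Kcnmb2* (0.90, SE 0.25, adjusted p = 0.00417, 0.41–1.64 against 0.197–1.23 CPM) were higher in D1. Of the small-conductance (SK) genes, *Kcnn1* was higher (0.43, SE 0.074, adjusted p = 3.23e-05, 10.7–16.2 against 6.59–12 CPM) and *Kcnn3*, known in dopamine neurons, lower in D1 (−0.27, SE 0.078, adjusted p = 0.00639, 36.9–58.3 against 35.7–68.7 CPM). *Kcnn2* was not called (−0.05, SE 0.064). The sodium-activated *Kcnt1* (Slack) was lower in D1 (−0.17, SE 0.033, adjusted p = 0.000174, 133–154 against 143–174 CPM), and *Kcnt2* (Slick) was not called (0.17, SE 0.093). With the cortical covariate *Kcnmb4* stood at 0.02 (adjusted p = 0.92), *Kcnn1* at 0.14 (adjusted p = 0.548), *Kcnn3* at −0.21 (adjusted p = 0.376) and *Kcnt1* at −0.13 (adjusted p = 0.185), none of them called, while *Kcnmb2* stood at 1.72, called.

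Of the noncoding and regulatory genes with the prefix, *Kcnq1ot1*, the antisense transcript that silences an imprinted cluster around *Kcnq1*, had 39.7–66.8 CPM in D1 and 44.2–129 CPM in D2 IPs (log2 difference −0.78, SE 0.14, adjusted p = 5.97e-05). The ranges overlapped, and the D2 libraries spread the more widely. The call was lost with the cortical covariate (−0.63, adjusted p = 0.137). *Kcnd3os*, *Kcnmb4os2* and *Kcnrg*, a regulator of Kv assembly, were not called. *Kcnq1ot1* and the os genes lie antisense to channel genes, and the strand setting of the counting is not given in the sources used here, so reads of partners cannot be told apart. The same holds for exons that *Kcnab1*, *Kcnh3*, *Kcnh7*, *Kcnip4*, *Kcnk3*, *Kcnk4*, *Kcnma1*, *Kcnn2* and *Kcnt2* share with another gene.

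Of 32 channels listed as known in MSNs, 12 were higher and 10 lower in D1, and 10 were not called, against 19.6% higher and 21.3% lower over all genes. Transcripts of genes that regulate or anchor these channels went both ways as well. Of 28 such genes, 26 could be tested, with 12 higher and 8 lower in D1, to be read against the same shares. *Lrrc38*, an auxiliary subunit of BK channels, had the largest difference at a very low level (2.11, SE 0.32, means of 0.985 and 0.224 CPM). *Cntn2* (0.53), an axonal adhesion protein of Kv1 clusters, and *Amigo1* (0.26), an auxiliary subunit of Kv2, separated all IPs of the lines. Lower in D1 were *Akap9* (−0.51), *Sptbn4* (−0.21), *Akap5* (−0.18), *Ank3* (−0.18) and *Dlg2* (−0.17), which scaffold channels at the initial segment and synapse, and *Dpp10* (−0.16) and *Dpp6* (−0.10), membrane subunits of Kv4. Of the related hyperpolarization-activated channels, *Hcn2* was higher in D1 by 0.12, *Hcn3* by 0.23 and *Hcn4* by 0.25.

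The second comparison set ribosome-bound RNA against total RNA of the tissue. In D1-Cre mice 59 of 70 channel genes differed between IP and input, 29 higher and 30 lower in the IP, against 81.9% of all genes (39.2% higher and 42.7% lower). At a fold above 1.5 as well, 34 did, against 43.1%. In D2-Cre mice 65 of 70 differed, 25 higher and 40 lower, against 82.7% (37.8% higher and 44.9% lower). The median log2 ratio of IP to input was −0.03 and −0.35 over the channel genes, and −0.04 and −0.08 over all genes. Counts are relative to each library's total, so a value states a gene's share of an IP relative to its share of the input.

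Higher in the IPs of both lines were the Kv4 subunits (*Kcnd2* with log2 ratios of 0.92 in the D1 and 1.03 in the D2 line, *Kcnd1* with 0.41 and 0.42, *Kcnd3* with 0.28 and 0.19). So were *Kcna5* (0.89 and 1.34), *Kcna4* (0.66 and 0.97), *Kcnab1* (0.72 and 1.01), *Kcnab2* (0.97 and 0.60) and *Kcnk2* (0.43 and 1.00). Of the silent Kv genes, *Kcnf1* (1.18 and 0.74), *Kcns1* (1.11 and 0.90), *Kcnv1* (0.90 and 0.64) and *Kcns2* (0.87 and 0.79) were higher in both. Of the M-channel genes, *Kcnq5* (0.55 and 0.66) was also higher, but *Kcnq3* was lower (−0.79 and −0.71).

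Lower in the IPs of both lines were *Kcnh7* (−1.54 and −2.28), *Kcnh4* (−1.32 and −0.88), *Kcng3* (−1.66 and −1.36), *Kcnk6* (−1.19 and −1.21) and *Kcna3* (−1.10 and −1.20). The cardiac and epithelial subunit gene *Kcnq1* had at most 10 counts in a D1 IP and 6 in a D2 IP, against 2 to 27 in the inputs, and *Kcne1l* at most 19 and 4, against 63 to 120. *Kcnmb1*, the smooth muscle BK beta subunit, had at most 2 counts in any D1 IP and 6 to 33 counts in the D1 inputs. *Kcne4* and *Kcnk5* had at most 3 counts in a D2 IP and up to 21 and 20 counts in the D2 inputs. Fitted ratios of these 5 genes depend on a prior count and are not given.

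Of 10 tandem-pore genes, 3 were higher and 5 lower in the IP of the D1 line. In that of the D2 line 1 was higher and 9 were lower. Such counts are to be read against all genes, with 39.2% higher and 42.7% lower in the D1 line and 37.8% and 44.9% in the D2 line. Of the Kv3 genes, *Kcnc1* was slightly higher in the IP of the D1 line and lower in that of the D2 line (0.13 and −0.16). *Kcnc4* stood at its input level in the D1 line (0.05, not called) and well below it in the D2 line (−1.42). *Kcnc2* was lower in both (−0.42 and −1.17). KChIP genes were higher in the D2 IP for all 4 (*Kcnip4* 0.67, *Kcnip2* 0.39, *Kcnip3* 0.18 and *Kcnip1* 0.13) and split in the D1 line, with 2 higher, 1 lower and 1 not called. The inputs also held glia, vessels and every neuron, with astrocyte marker sums near 868 CPM.

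**Figure D4:**
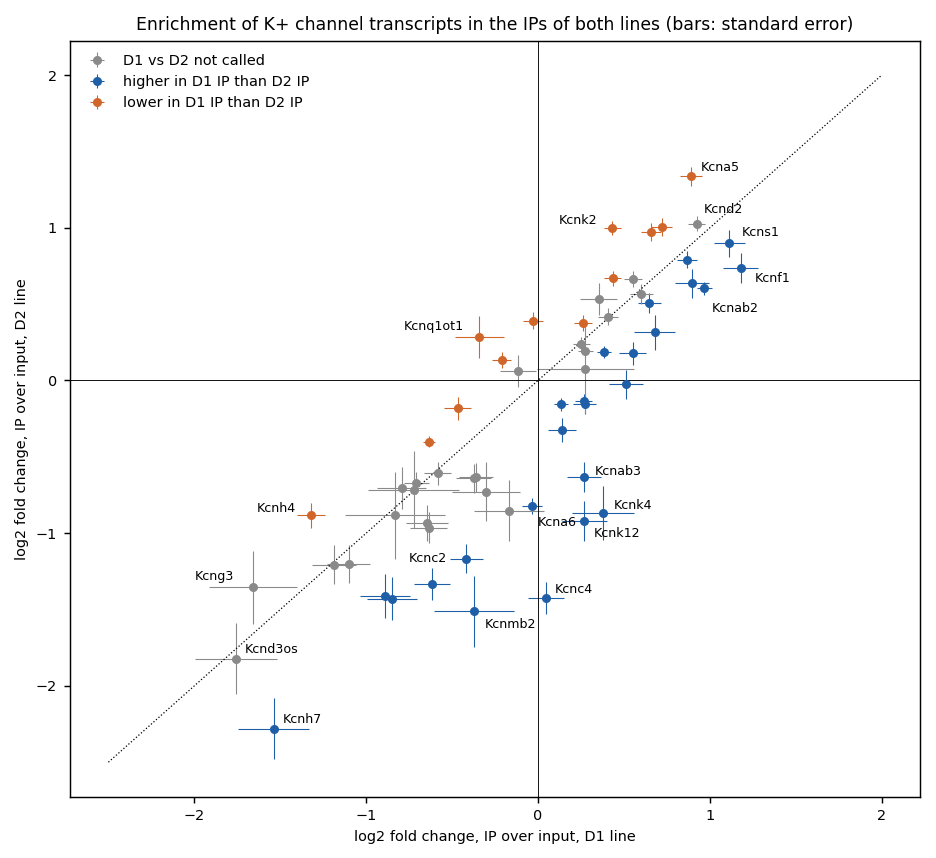
Log2 ratio of IP to input for potassium channel genes tested, in the D1 line (x axis) and the D2 line (y axis), with standard errors; blue and orange mark genes called higher and lower in D1 than in D2 IPs, and the dotted line marks equal ratios. Genes right of 0 and above 0 are higher in the IPs of both lines, such as *Kcna5* at 0.89 and 1.34; *Kcnc4* lies at 0.05 and −1.42. The genes *Kcnmb1*, *Kcnk5*, *Kcne4*, *Kcnq1* and *Kcne1l*, which did not pass the count filter in the IPs, are left out.

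Of the 26 regulator and anchor genes, 15 were higher and 8 lower in the IP of the D1 line, and 12 higher and 11 lower in that of the D2 line, against the shares of all genes given for these contrasts (39.2% and 42.7%, 37.8% and 44.9%).

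The third comparison asked whether defeat changed these channels within a line. No channel gene passed the test after adjustment in any contrast between stress groups (edgeR quasi-likelihood test, all adjusted p at or above 0.846), and over all genes the adjusted test called 0, or 1 (0.00703%) in D1 Res against Con. Values below are therefore given at an unadjusted p under 0.05, with the share of all genes called in the same way. Contrasts within a line share their libraries, so they are not independent of each other.

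In D1 IPs, 4 of 65 channel genes passed this threshold for Sus against Con, against 5.34% of all genes (DESeq2 counted 4). *Kcnb2*, a Kv2 subunit, had 7.13, 8.27, 8.89 and 9.42 CPM in the Con libraries and 12.6, 10.8, 10.7, 8.88 and 14.5 CPM in the Sus libraries. Of the Sus libraries, 1 lay among the Con values and 4 lay above them, with a log2 difference of 0.44 (SE 0.15, unadjusted p = 0.00662). *Kcnip2* had 232, 189, 174 and 184 CPM in Con and 179, 182, 155, 167 and 171 CPM in Sus (log2 difference −0.20, SE 0.072, unadjusted p = 0.0116), and did not pass without Con 1, its highest library. *Kcnk12* (0.42, unadjusted p = 0.0282) did not pass without Con 1, Sus 3 or Sus 5. Without D1 Con 1 the count fell from 4 to 1, and without D1 Sus 5 to 2.

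For D1 Res against Con no channel gene passed, against 2.11% of all genes, and DESeq2 counted 1. Sus against Res gave 3, against 4.23%. These were *Kcnb2* (0.38, unadjusted p = 0.019), *Kcna5* (−0.17, unadjusted p = 0.0238) and *Kcnh3* (−0.17, unadjusted p = 0.0289). *Kcnh3*, an EAG-family subunit of the forebrain, had 165, 159, 159 and 172 CPM in Res and 149, 147, 155, 144 and 136 CPM in Sus. These groups did not overlap, but the share of all genes that separated them is not given here. *Kcnh3* nevertheless did not pass without Res 1, Res 4, Sus 4 or Sus 5, and *Kcna5* did not without Res 3, Sus 3 or Sus 4. Nor did *Kcnb2* pass without Res 1, Res 3 or Sus 5 (0.28 to 0.34). The count fell to 1 without Sus 4 and rose to 5 without Res 2. Cortical marker sums averaged 723 CPM in D1 Con, 693 CPM in Res and 886 CPM in Sus libraries. With these sums as a covariate, a fit chosen after the data were seen, 5 channel genes passed for Sus against Res. The part of these markers in the contrasts was not tested.

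In D2 IPs, 4 channel genes passed for Sus against Con (3.68% of all genes, DESeq2 3), 2 for Res against Con (3.02%, DESeq2 3) and 1 for Sus against Res (1.66%, DESeq2 1). *Kcnt2* (Slick) had 5.54, 7.46, 8.18, 7.05 and 5.65 CPM in Con, 7.87, 11.3, 8.88, 8.51 and 7.77 CPM in Res, and 8.12, 7.79, 9.01, 10.1 and 9.13 CPM in Sus libraries. Both defeated groups lay mostly above Con, by 0.38 on the log2 scale each (unadjusted p = 0.0209 for Res and 0.0214 for Sus). The Sus value did not pass without Con 1, Con 5 or Sus 4, nor the Res value without Con 1, Con 5 or Res 2.

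Also for D2 Sus against Con, *Kcnip1* differed by 0.17 (unadjusted p = 0.0234), *Kcnc4* by 0.35 (unadjusted p = 0.0474) and *Kcnk4* by 0.56 (unadjusted p = 0.0485). *Kcnip1* did not pass without Con 4, Con 5 or Sus 2, and *Kcnc4* and *Kcnk4* did not without any one of 7 libraries each. The Sus against Con count fell to 1 without Con 4 or Con 5. *Kcnab2* was lower in D2 Res than in Con (−0.10, unadjusted p = 0.0371), and did not pass without Con 2, Con 5, Res 1, Res 4 or Res 5. The Res against Con count fell to 0 without Con 5. *Kcnk12* was higher in D2 Sus than in Res (0.43, unadjusted p = 0.0305), with 2, 1.67, 2.42, 3.07 and 2.23 CPM against 1.78, 1.86, 1.33, 1.75 and 1.74 CPM, and did not pass without Res 3, Sus 3 or Sus 4 (0.30 to 0.40).

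**Figure D5:**
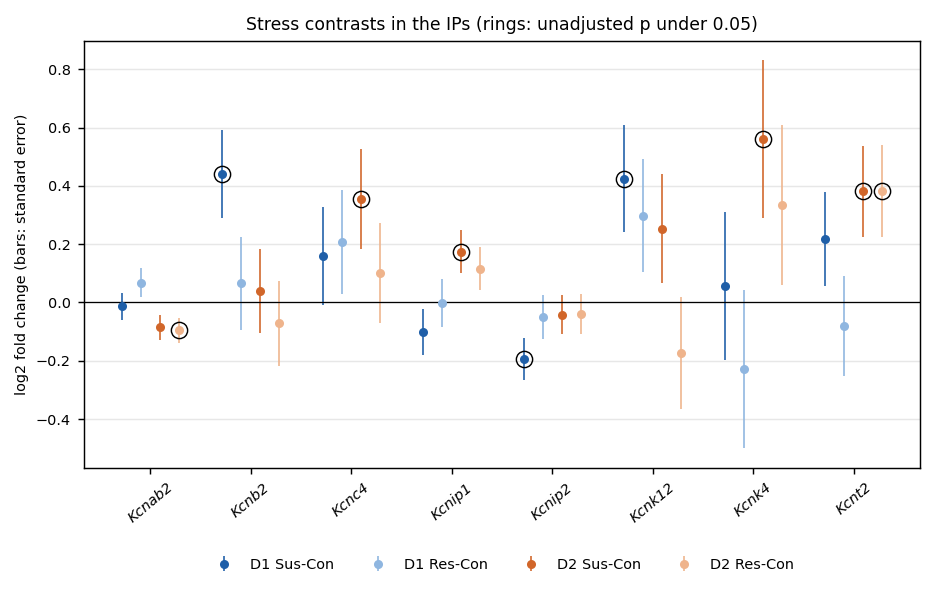
Log2 difference from Con, with its standard error, of Sus and Res libraries in each line for 8 potassium channel genes with an unadjusted p under 0.05 in any of these contrasts. Rings mark contrasts that passed that threshold; *Kcnb2* in D1 Sus lies at 0.44 and *Kcnk4* in D2 Sus at 0.56.

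Whether defeat acted differently in the lines was tested as the difference of the 2 effects. For Sus against Con 1 channel gene passed the unadjusted threshold, against 1.82% of all genes (DESeq2 2). *Kcnip1* had 24.4, 24.9, 21.9 and 23.6 CPM in D1 Con, 22.9, 24.6, 20.8, 20.7 and 21.7 CPM in D1 Sus, 29.7, 29.8, 27.6, 26.8 and 26.5 CPM in D2 Con, and 31.5, 37.1, 30.6, 26.4 and 32.5 CPM in D2 Sus libraries. The effect in D1 minus that in D2 was −0.28 (SE 0.107, unadjusted p = 0.0155). For Res against Con it was *Kcnab2* (2.36% of all genes, DESeq2 2), at 0.16 (SE 0.066, unadjusted p = 0.0184), with 469, 481, 474 and 514 CPM in D1 Con, 529, 509, 490 and 504 CPM in D1 Res, 416, 416, 415, 413 and 424 CPM in D2 Con, and 385, 410, 419, 367 and 372 CPM in D2 Res. Neither value passed after adjustment.

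Total RNA, taken over both lines, gave 3 of 70 channel genes for Sus against Con (4.13% of all genes), 3 for Res against Con (2.97%) and 2 for Sus against Res (4.86%). DESeq2 gave 3, 3 and 2. *Kcnk1* was lower in Sus than in Con inputs (−0.16, unadjusted p = 0.00604), with 49.3, 50.8 and 53.2 CPM in D1-Cre Sus and 50.1, 52.1 and 61.8 CPM in D2-Cre Sus against 56.2, 56.6, 59.3, 65.3, 59.6 and 59.2 CPM in Con. *Kcnk1* was also lower than in Res (−0.14, unadjusted p = 0.0135). *Kcnq1ot1* was higher in Sus (0.30, unadjusted p = 0.0116) and in Res (0.23, unadjusted p = 0.0444) than in Con inputs. The others were *Kcne4* (1.05, unadjusted p = 0.0411, under 1.1 CPM in every input), *Kcna6* (0.15, unadjusted p = 0.023), *Kcnd2* (−0.11, unadjusted p = 0.0326) and, against Res, *Kcns1* (−0.34, unadjusted p = 0.0276). Leaving out 1 library ended the *Kcnq1ot1* call in Res for any one of 8 libraries (0.18 to 0.24), those of *Kcne4*, *Kcnd2* and *Kcns1* for any one of 6 each, and that of *Kcna6* for 3. None of these genes, of which *Kcne4* could not be tested in the IPs, passed the threshold for the same contrast in the IPs of a line.

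Of the regulator and anchor genes, *Cntn2* was higher in D1 Sus than in Con (0.28, unadjusted p = 0.000562) and than in Res (0.22), and *Hcn2* was higher in D1 Res than in Con (0.12) and lower in Sus than in Res (−0.15), as was *Dlg4* (−0.12). The lines differed in the Sus effect on *Cntn2* (0.22, unadjusted p = 0.0367) and in the Res effect on *Hcn2* (0.21, unadjusted p = 0.00947). In the inputs *Hcn3* was higher in Sus (0.24) and in Res (0.18), and *Abcc9* in Sus (0.27), than in Con. All of these were unadjusted calls.

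The last comparison set 4 libraries labelled Sirt1-KO against the 4 D1 Con IPs. *Sirt1* had 13.1, 16.6, 14.8 and 14.4 CPM in the Con libraries and 15.2, 16.2, 13.2 and 10.2 CPM in those labelled Sirt1-KO, a log2 difference of −0.10 (SE 0.13, adjusted p = 0.768). Counts over the whole gene include exons outside any deleted part, so they do not check the deletion. The libraries labelled Sirt1-KO were deposited apart from the others, and genotype and batch cannot be told apart.

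Of 66 channel genes tested, 1 was called, against 1.66% of all genes, and 17 had an unadjusted p under 0.05, against 17.3%. *Kcnab1* had 384, 310, 329 and 311 CPM in Con and 271, 259, 243 and 282 CPM in the libraries labelled Sirt1-KO, all of which lay below every Con library. The log2 difference was −0.34 (SE 0.075, adjusted p = 0.0495, edgeR), and it lost its call without any one of 7 of the 8 libraries, so that it rests at the threshold. DESeq2 called 6 channel genes.

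Other genes, picked after their values were seen, separated the 8 libraries without being called. The share of all genes that did so is not given here, so their separation is not a result about channels. *Kcnn2* had 15.1, 14.5, 16.3 and 15.6 CPM in Con and 19.3, 21.6, 23.6 and 17.4 CPM in the libraries labelled Sirt1-KO (0.42, adjusted p = 0.0566). *Kcnma1* had 73, 91.9, 83.5 and 91.3 CPM against 96.3, 132, 112 and 113 CPM (0.42, adjusted p = 0.0585). *Kcnk2* had 152, 138, 132 and 136 CPM against 110, 95.6, 92.7 and 127 CPM (−0.39, adjusted p = 0.0605). None of these 3 differences passed the test.

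*Kcnd2* (254–301 against 234–244 CPM) and *Kcnt1* (126–145 against 117–120 CPM) were lower without overlap and not called, at −0.22 and −0.17. *Kcnc4* overlapped, with 19, 41, 34.1 and 38.2 CPM against 47.6, 56, 57.6 and 35.7 CPM (0.58). Of the regulator and anchor genes, 25 were tested and *Cntnap2*, an adhesion protein that clusters Kv1 channels, was called (−0.45, SE 0.097, adjusted p = 0.0445). Marker sums moved with the same contrast. Those of the D1-MSN markers (1192–1468 CPM in Con, 896–1121 CPM in the libraries labelled Sirt1-KO), the somatostatin and NPY interneuron markers (99.0–129 against 136–164 CPM) and the cholinergic markers (34.2–36.2 against 20.9–27.3 CPM) did not overlap. Cortical sums (366–1003 against 819–1522 CPM) and those of the 4 general MSN markers (3540–4640 against 2698–3927 CPM) overlapped. With the summed cortical markers as a covariate, no channel gene was called. The part of any of these markers in the differences was not tested.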

How the data were processed

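RNA was sequenced from HA immunoprecipitates (28 libraries), inputs (18) and libraries labelled Sirt1-KO (4) by poly-A selection and a stranded kit. The values used are raw counts per gene, deposited by the authors, who trimmed with cutadapt, checked reads with FastQC, aligned to mm10 with STAR and counted with HTSeq, by the study's methods and the submitters' processing notes; versions, annotation, the strand setting of the counting and the sequencing run of each library are not given in the sources used here. Entries of the tables that name no gene held 21.5% ± 2.83 of counts in IPs, 37.8% ± 1.16 in inputs and 21% ± 2.1 in the *Sirt1* table (SD), and were left out. The tables also held 2 columns that match no sample and were not used.

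Models were fitted in R 4.3.3 with edgeR 4.0.16 (limma 3.58.1): TMM factors, genes kept at a minimum count of 10 and a total of 15, the quasi-likelihood test, and Benjamini-Hochberg adjustment over all genes tested. One model took the 28 IPs (14224 genes), one all 46 libraries of the D1 and D2 lines (15404), one the 18 inputs (15063) and one the 8 libraries of the *Sirt1* table (13626), each with a mean for every group. Calls used an adjusted p under 0.05, and an unadjusted p under 0.05 for stress contrasts. A log2 difference has SE |log2|/√F. CPM are counts-per-million scaled by TMM factors of the 46 libraries, or of the 8. Levels per kilobase used GENCODE vM21 exon lengths, which matched all 83 genes. DESeq2 1.42.0 and the other settings in the closing section were alternatives, some of them with 1 library left out at a time. Code was tested on simulated data. Figures were drawn with matplotlib 3.10.9 (numpy 2.4.6) in Python 3.11.15.

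The genes and lists were chosen with earlier results of these data known. Genes were named by rule: the 12 most abundant per length, 32 channels listed as known in MSNs, up to 10 called in each direction for the D1 and D2, IP and input, and *Sirt1* comparisons, and up to 6 in each direction by p for stress, interaction and input contrasts; 28 genes that regulate or anchor these channels were counted and named by the same rules. Some genes enter the counts but are not reported here. Genes named for having no overlap between groups, for a loss of their call, or among not-called members of a family were chosen after their values were seen. Same-numbered libraries of different IP groups had a mean correlation of deviations of 0.0675 (66 pairs, 23 over 0.1), against −0.0171 for different numbers (260 pairs, 36 over 0.1), and IP and input of one number 0.0473 (18 pairs, 3 over 0.1). Not every pair was over 0.1, so the numbers were not taken as pairs. A rule that asks this of every pair is strict and cannot exclude a pairing.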

Additional observations from a re-analysis of the deposited data

Results flagged for a closer look

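In groups of 4 or 5 libraries, 1 library stood apart from its group by Dixon's criterion in 15 of 175 combinations of a named channel gene and a group (8.57%), where about 5% arise by chance. In the D1 IPs these were *Kcna4* in Con 1 (131 CPM, nearest 107) and in Sus 5 (128, nearest 104), *Kcnh7* in Con 1 (3.53, nearest 6.51), *Kcnab2* in Sus 3 (517, nearest 479), *Kcnk2* in Sus 3 (116, nearest 138), *Kcnh4* in Sus 4 (9.92, nearest 13) and *Kcnn3* in Sus 5 (58.3, nearest 43.6). Sus 3 had the highest cortical marker sum of the D1 IPs, 1364 CPM, and a link to its values was not tested. In the D2 IPs they were *Kcnab2* in Con 5 (424 CPM, nearest 416), *Kcnc4* in Con 3 (18.4, nearest 13.5), *Kcnh3* in Con 2 (166, nearest 154), *Kcnab1* in Res 5 (297, nearest 401), *Kcnk12* in Res 3 (1.33, nearest 1.74) and *Kcnh7* in Sus 5 (10.2, nearest 4.66). Among the libraries labelled Sirt1-KO they were *Kcnab2* in replicate 4 (517 CPM, nearest 484) and *Kcnt2* in replicate 5 (7.25, nearest 10.3).

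The effect of defeat differed between the lines, at an unadjusted p under 0.05, for *Kcnip1* in Sus against Con (D1 minus D2 effect −0.28) and for *Kcnab2* in Res against Con (0.16). Both had an adjusted p of 1 in edgeR. The *Kcnab2* value includes the D2 Con group, whose Con 5 library stood apart.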

How the results depend on the processing

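No call in the IPs between stress groups survived adjustment: with an adjusted p under 0.05, the counts of channel genes were 0 for D1 Sus against Con and Res, for the 3 D2 contrasts, for the 3 input contrasts and for both differences between lines. The D1 against D2 count of 39 held under RLE factors, filters and DESeq2 within 1.5 times. Requiring a fold above 1.5 left 9 for the mean, 8 in Con, 7 in Res and 7 in Sus, and 34 for IP against input in the D1 line. With the cortical covariate 19 were called, among them *Kcnd3* and *Kcnh8*, which were not called without it. Among reported genes called without it, it turned the signs of *Kcng1* (−0.024), *Kcnh1* (−0.013) and *Kcnip3* (−0.17), not called there. Genes called in neither fit turned sign as well, among them *Kcnma1* (−0.058) and *Kcnt2* (−0.18). The covariate gave 5 for D1 Sus against Res, 2 for D2 Sus against Res and 7 for input Sus against Con. Testing all genes with a count gave 1 for D1 Res against Con, 5 for D1 Sus against Res, and 3 (Sus) and 2 (Res) for the difference between lines. Fitting only the groups compared gave 9 for D1 Sus against Con and 1 for D1 Res against Con. DESeq2 gave 1 for D1 Res against Con and 2 for each difference between lines, and a mean of at least 50 counts 2 for D2 Sus against Con. For libraries labelled Sirt1-KO the count of 1 became 0 under RLE factors, a mean of at least 50 counts, a fold above 1.5 or the cortical covariate, 4 with all genes and 6 with DESeq2. The cause of each change was not tested.

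A replicate block was also fitted, although the numbers were not taken as pairs. It gave 20 (12 higher, 8 lower) for Sirt1-KO, 1 for D1 Res against Con and 5 for D1 Sus against Res. For D2 it gave 4, 2 and 2 for Res against Con, Sus against Con and Sus against Res. Each difference between lines gave 3.

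Leaving out 1 library gave 37 to 41 for D1 against D2 over the mean, 11 to 23 in Con (11 without D1 Con 2), 14 to 23 in Res and 19 to 28 in Sus, 57 to 61 and 62 to 66 for IP against input in the D1 and D2 lines, and 0 to 0 between input lines. For D1 it gave 1 to 5 for Sus against Con, 0 to 2 for Res against Con and 1 to 5 for Sus against Res, and for D2 1 to 5, 0 to 3 and 0 to 3. The differences between lines gave 1 to 4 (Sus) and 1 to 3 (Res), the inputs 2 to 9, 0 to 4 and 1 to 7 (Sus against Con, Res against Con, Sus against Res), and Sirt1-KO 0 to 8 (8 without Sirt1-KO replicate 5). Depth limits most the precision of genes under about 3 CPM, such as *Kcnmb2* and *Kcnk4*.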

Other observations

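*Kcnq1*, which encodes a cardiac and epithelial channel subunit and was not tested in the *Sirt1* table, had 0, 0.22, 0.065 and 0.15 CPM in the D1 Con libraries and 0.070, 1.68, 1.71 and 0.14 CPM in the libraries labelled Sirt1-KO, where replicates 3 and 4 stood above the others. The highest of these values came from 54 counts. Its antisense partner *Kcnq1ot1* is counted separately, and how reads were divided between them is not given in the sources used here.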
